A study of Mus musculus with 16 samples.

Results

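Brain tumours raised in mice by a retrovirus that drives PDGF-B, on a background without p53 and without RBPJ, were compared with normal brain. The comparison took the 4 arrays of the PDGF+p53-/-RBPjk-/- tumours and the 4 arrays of control brain tissue, out of 16 arrays in the series, and covered all 19936 genes that have a probe set naming a single gene symbol. Total RNA was hybridised to whole-transcript microarrays, and each gene has a normalised log2 level per array, so that a difference of 1 is a 2-fold change. The virus, PDGF-IRES-Cre, made PDGF-B and Cre recombinase together in mice whose p53 and RBPjk alleles were floxed, which ties the loss of both genes to the infected cells. Which cell types the virus entered is not given in the sources used here. Tumours were taken once the mice had symptoms, located by a Cre-dependent GFP reporter, and cut out by microdissection, so each piece may hold cells of the host that the virus never entered. Control animals were wild type at Pdgfb, Trp53 and Rbpj. The region of the brain they came from, the ages of the mice and whether replicates are separate animals are not given, and p-values therefore measure the spread between these samples, which may in part be technical. The series also holds 4 PDGF+p53-/- tumours, made by the same virus in mice with floxed p53 alone, and 4 p53-/-RBPjk-/- tumours, made without virus by a Hes5::CreERT2 line that deletes both floxed genes in Hes5+ cells. All 3 tumour groups lack p53.

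PDGF-B binds the receptors PDGFRA and PDGFRB, and PDGFRA is the growth factor receptor of oligodendrocyte precursor cells, the dividing glia that give rise to myelinating oligodendrocytes. p53 is a transcription factor that halts division or starts cell death after damage. RBPJ is the DNA-binding protein through which cleaved Notch receptors switch on genes such as Hes5 and Hey1. In the neural stem cells of the adult brain, Notch signalling through RBPJ keeps cells undifferentiated.

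Normal and tumour tissue lay far apart. By limma, 6702 of the 19936 genes (33.6%) differed at an adjusted p under 0.05. Of these, 3126 were higher in the tumours (15.7% of all genes) and 3576 were lower (17.9%). A change of at least 2-fold was called for 2245 genes (11.3%), with 973 higher (4.88%) and 1272 lower (6.38%). The median difference over all genes was -0.03, with a median standard error of 0.15. All 4 tumour arrays lay on the same side of all 4 control arrays for 6887 genes (34.5%), of which 5953 were also called (29.9% of all genes). In a principal component analysis the leading axis took 56.9% of the variance, and on it the control arrays ran from -76.6 to -73.2 while the tumour arrays ran from 13.2 to 29.0. Correlations between tumour arrays were 0.968 to 0.984, and array medians were 5.97 to 6.05 in the tumours and 5.99 to 6.04 in the controls. Centring the arrays on a housekeeping list, whose mean was 0.10 higher in the tumours, gave 2411 genes higher and 4246 lower. The list was not stable itself: of its 10 measured genes 3 were called higher and 3 lower, with differences from -1.16 to 1.86. Sex-linked genes had the female pattern on 1 of 4 tumour arrays and on 2 of 4 control arrays.

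**Figure D1:**
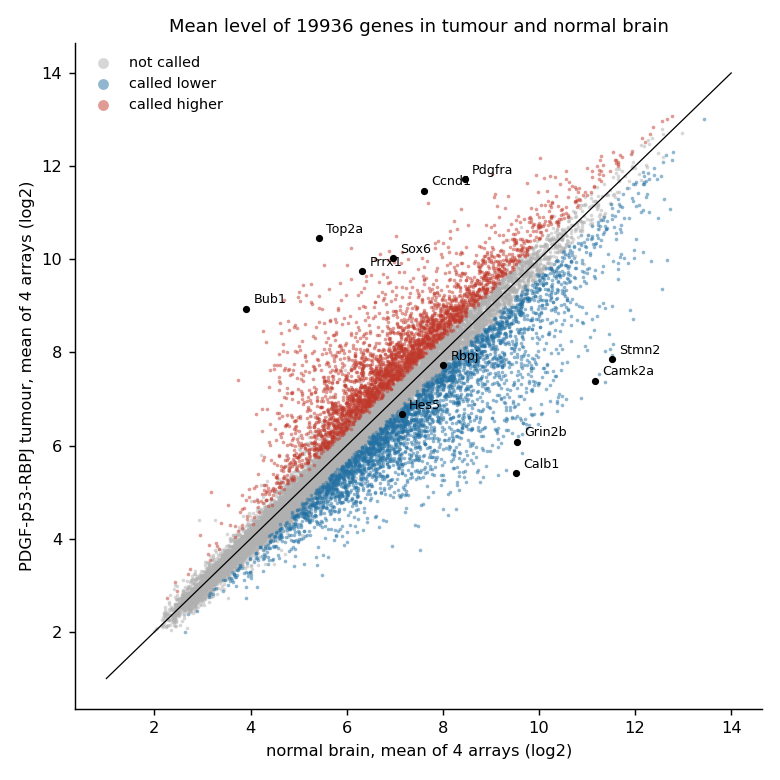
Mean log2 level of each of the 19936 genes in 4 arrays of normal brain (horizontal axis) against 4 arrays of PDGF-p53-RBPJ tumour (vertical axis). The 3126 genes called higher are red, the 3576 called lower are blue, the line marks equal levels, and named genes are black; Bub1 and Top2a lie farthest above the line among them and Calb1 farthest below.

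The genes altered by design gave weak readings. Rbpj read 7.69, 7.88, 7.55 and 7.81 on the tumour arrays and 8.11, 8.21, 7.76 and 7.96 on the control arrays. Its groups overlapped, and the difference of -0.28 ± 0.13 (SE) had an adjusted p of 0.101 by limma. In an exact permutation test, two-sided, p was 0.0857, and 0.0286 is the smallest that 4 against 4 can give. Rbpj was called lower when its probe sets were averaged, with array weights, with housekeeping centring and without control replicate 3. Against the PDGF-p53 tumours, which keep Rbpj, the difference was -0.59, with the smallest exact permutation p (0.0286) and an adjusted p of 0.269 by limma. Pdgfb, the ligand carried by the virus, read 6.19, 5.88, 6.05 and 5.97 in the tumours and 5.71, 5.69, 6.20 and 5.96 in the controls, which overlap (difference 0.13, exact permutation p = 0.343). Whether the probes of Rbpj lie in the deleted stretch, and whether those of Pdgfb read the viral transcript, is not given in the sources used here, so neither gene checks the labels. Trp53 was not analysed here.

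Genes of cell division rose together. Of 55 measured genes of a mitosis list, 53 were called higher and 0 lower, with a median difference of 3.11, and all 35 measured DNA replication genes were called higher, with a median of 1.79. The 2 highest differences of all genes both belong to mitosis. Top2a, the topoisomerase that untangles sister chromosomes, read 10.69, 10.48, 10.21 and 10.45 in the tumours and 5.28, 5.28, 5.18 and 5.94 in the controls. Its difference was 5.03 ± 0.19, a 32.8-fold change (adjusted p = 2.74e-11), which becomes 2.97 when the probe sets of the gene are averaged. Bub1, a kinase of the spindle checkpoint, read 9.39, 8.99, 8.76 and 8.62 against 4.20, 3.73, 3.41 and 4.31, a difference of 5.03 ± 0.24. For both genes the gap between the groups was several times the range within either. Mki67, the Ki-67 proliferation antigen, differed by 4.35 ± 0.18 (20.4-fold), from 5.19 to 5.88 in the controls to 9.59 to 10.13 in the tumours. The kinetochore protein Knl1 (4.43) and the spindle motor Kif11 (4.37) rose by as much, followed by the mitotic kinase Pbk (4.29), Nuf2 (4.22), Aspm (4.19), Ect2 (4.19), Cenpe (4.07), Cenpf (4.07), Kif4 (4.02), Hmmr (3.89) and Shcbp1 (3.89). The 15 largest rises held a single gene outside the division machinery, Moxd1, which encodes a monooxygenase-like protein and went from 5.63 to 6.53 in the controls to 10.19 to 10.30 in the tumours (4.16 ± 0.47). The mitosis genes that were not called were Anln, at 0.33 (adjusted p = 0.418), and Pttg1, at -0.08 (adjusted p = 0.722). Anln is also on the list of mature oligodendrocyte genes used below.

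The promoters of these genes are shown because they carry the elements through which division genes are known to be timed. The cell cycle homology region (CHR, letters TTTGAA or TTCGAA) is bound by the DREAM and B-MYB complexes, CCAAT by the factor NF-Y, and E2F sites (letters TTTCGCGC, TTTGGCGC, TTTCCCGC or TTTGCCGC) by the E2F proteins. Each line below gives, 5′ to 3′ along the gene, the 120 bases that end just before the start of transcription in RefSeq (GRCm38.p6), with matches to any of these letters on either strand in capitals (CCAAT reads ATTGG from the other strand).
Cdk1: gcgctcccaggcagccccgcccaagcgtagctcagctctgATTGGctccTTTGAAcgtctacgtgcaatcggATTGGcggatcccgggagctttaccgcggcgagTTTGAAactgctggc
Top2a: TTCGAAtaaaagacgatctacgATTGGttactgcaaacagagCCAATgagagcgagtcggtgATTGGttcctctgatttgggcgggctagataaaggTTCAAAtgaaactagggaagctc
Ccnb2: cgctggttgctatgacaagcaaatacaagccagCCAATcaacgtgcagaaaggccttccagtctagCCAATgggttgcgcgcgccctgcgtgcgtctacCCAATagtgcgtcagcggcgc
Mcm6: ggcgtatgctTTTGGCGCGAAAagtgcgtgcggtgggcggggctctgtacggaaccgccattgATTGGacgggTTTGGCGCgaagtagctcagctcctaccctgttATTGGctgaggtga
Cdk1, the kinase that starts mitosis (chr10:69352913-69353032, minus strand), holds 2 CHR and 2 CCAAT matches, and Top2a (chr11:99024190-99024309, minus strand) holds 2 CHR and 3 CCAAT matches. Ccnb2, a mitotic cyclin (chr9:70421555-70421674, minus strand), holds 3 CCAAT and 0 CHR matches. Mcm6, a subunit of the replicative helicase (chr1:128359706-128359825, minus strand), holds 3 E2F matches, of which 2 overlap on opposite strands, 2 CCAAT matches and 0 CHR matches. The other 3 windows hold 0 E2F matches. Farther from the start, within the 250 bases counted next, Ccnb2 has a CHR match and Cdk1 an E2F match. Over the 250 bases before the start, 31 of 47 mitosis genes with a promoter in the table (66.0%) held CCAAT, 18 (38.3%) held a CHR and 15 (31.9%) held both. Among all 27025 promoters the shares were 34.5%, 17.4% and 6.21%. An E2F match stood in 8 of 29 DNA replication promoters (27.6%) and in 1.91% of all promoters. These matches describe the letters and show no binding in these tissues. The same 4 genes all rose: Cdk1 went from 5.49, 5.29, 5.19 and 5.98 to 8.97, 9.34, 8.69 and 8.73 (3.44 ± 0.22), Ccnb2 differed by 3.13 ± 0.21, and Mcm6 by 2.48 ± 0.15.

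Replication genes rose less than mitosis genes in the median but without exception. Rrm2, the regulated subunit of ribonucleotide reductase, had the largest difference, 3.82 ± 0.31, from 5.47, 5.18, 4.90 and 5.47 in the controls to 9.37, 9.49, 8.99 and 8.44 in the tumours. It was followed by Pole, the leading-strand polymerase (2.80), Rrm1, the partner of Rrm2 (2.61), Prim1, the primase (2.53), and Mcm6. Of 23 measured genes of the DNA damage response and homologous recombination, 22 were called higher (median 1.56), among them the checkpoint mediator Clspn (2.71), the helicase Brip1 (2.61) and the checkpoint kinase Chek1 (2.51). Of 20 chromatin genes of dividing cells, 14 were higher and 1 lower. The chromatin protein Hmgb2 rose by 3.51 ± 0.21, the fetal chromatin protein Hmga2 by 3.25 ± 0.42, the remodeller Hells by 2.65, and Lmnb1, a subunit of the nuclear lamina, by 2.55.

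Drivers of entry into the cycle rose together with several of its brakes. Of 8 measured G1 cyclins and kinases, 6 were called higher and 0 lower, with a median of 1.58. Ccnd1, the D-type cyclin that links growth signals to the cycle, read 11.54, 11.29, 11.78 and 11.28 in the tumours and 7.70, 7.41, 7.68 and 7.66 in the controls (3.86 ± 0.19, adjusted p = 2.45e-10). Cdk4, the kinase it activates, read 10.71, 10.57, 10.74 and 10.56 against 8.18, 8.01, 8.50 and 8.50 (2.35 ± 0.15). In both genes every tumour array exceeded every control array. Ccnd2 differed by 2.15, Cdk2 by 1.88 and Ccne2 by 1.28. Of 8 E2F genes, 4 were higher, against 15.7% of all genes, led by the repressors E2f8 (2.68) and E2f7 (1.34). Among 9 measured CDK inhibitors and pocket proteins, which do not include Cdkn1a, 5 were higher and 0 lower. Cdkn2c, which encodes the CDK4 inhibitor p18, went from 5.92, 5.61, 5.79 and 6.20 to 9.32, 9.14, 8.89 and 9.15 (3.25 ± 0.18). Rbl1, the retinoblastoma relative p107, rose by 2.37 and Cdkn2b by 1.86. Cdkn2a, the locus of p16 and p19ARF, rose by 1.03 ± 0.18, from 5.39 to 5.98 up to 6.48 to 7.13. Cdkn1b, the inhibitor p27, had a difference of 1.62 ± 0.44 (adjusted p = 0.00827), but its control arrays spread from 5.19 to 7.74 and overlapped the tumour arrays.

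Targets of p53 moved little and in both directions. Of 27 measured p53 targets, 4 were called higher and 5 lower, with a median of 0.06, and the share called was about that of all genes (33.6%). Cdkn1a and Bax are not among the 27. Apaf1, a scaffold of the apoptosome, rose by 0.87 and Psrc1, a microtubule regulator, by 0.69. The death receptor Fas fell by 0.96, the junction protein Perp by 0.70 and the stress protein Sesn1 by 0.61. The count called higher was 2 without control replicate 3 and 2 with housekeeping centring, and the count called lower was 3 without tumour replicate 2.

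Genes of oligodendrocyte precursor cells were higher in the tumours. Of 28 measured genes of that cell type, 24 were called higher and 0 lower, with a median of 1.64. Pdgfra, the receptor for the viral ligand, read 11.72, 11.73, 11.64 and 11.81 in the tumours and 8.59, 8.52, 8.40 and 8.33 in the controls, a 9.59-fold difference (3.26 ± 0.33, adjusted p = 6.1e-07). Sox6, a transcription factor of precursor cells, read 9.93, 10.07, 9.98 and 10.11 against 6.90, 6.92, 7.22 and 6.85 (3.05 ± 0.12). Olig2, the transcription factor that specifies the lineage, read 8.59, 8.55, 8.55 and 8.48 against 6.29, 6.35, 5.89 and 6.43 (2.30 ± 0.14). The tumour arrays of these 3 genes lay close to each other and far above every control array. Lhfpl3, a membrane protein enriched in precursor cells, rose by 2.81, the proteoglycan Vcan by 2.58, and Cspg4, the NG2 proteoglycan, by 1.72. The list members that were not called were Neu4 (0.52, called without tumour replicate 3 or p53-RBPJ replicate 1), Cdo1 (0.30), Sox5 (0.26) and Emid1 (0.19). Against normal brain the list median was also 1.69 in the PDGF-p53 tumours and 1.46 in the p53-RBPJ tumours, which lack the virus. Pdgfra read 12.04, 12.14, 11.87 and 11.93 on the PDGF-p53 arrays and 13.03, 12.75, 10.77 and 12.78 on the p53-RBPJ arrays. In bulk tissue, a larger share of cells of a type and more RNA per cell cannot be told apart, and the same holds below for types whose genes were lower.

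**Figure D2:**
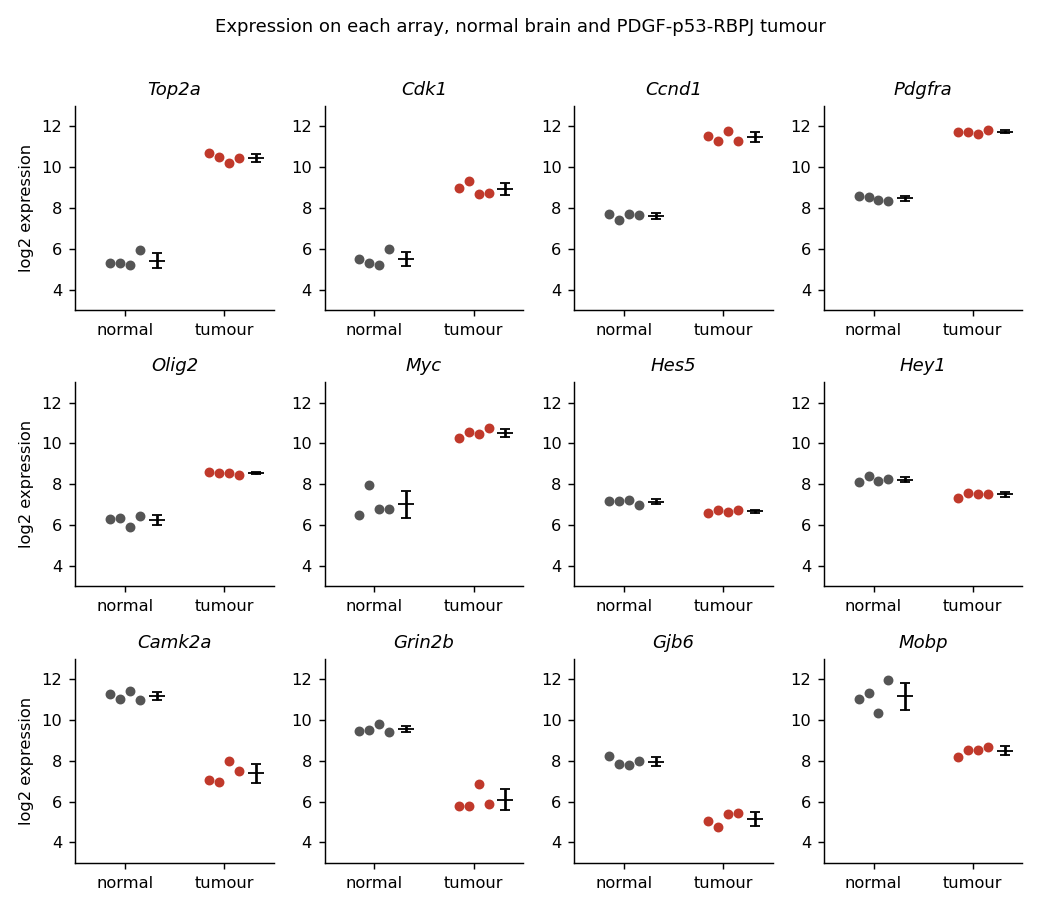
Log2 level of 12 genes on each of 4 arrays of normal brain (grey) and 4 arrays of PDGF-p53-RBPJ tumour (red), with the mean and SD as bars beside the points. The division, precursor and growth genes Top2a, Cdk1, Ccnd1, Pdgfra, Olig2 and Myc are higher and Hes5, Hey1, Camk2a, Grin2b, Gjb6 and Mobp lower on every tumour array than on every control array.

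No other member of the PDGF family was called higher. Pdgfrb, the other receptor, differed by 0.15 (adjusted p = 0.591), Pdgfa by -0.25 and Pdgfc by -0.21. Pdgfa was not called (adjusted p = 0.780 by limma), although every tumour array read below every control array. Pdgfd was called lower (-0.85, adjusted p = 0.0264) but overlapped between the groups and lost its call without control replicate 3, control replicate 4, tumour replicate 1 or tumour replicate 2. Of 15 SOX factors, 7 were called higher and 0 lower. Sox10, which works with Olig2 in the oligodendrocyte lineage, rose by 1.64, and the progenitor factors Sox2, Sox4 and Sox11 rose by 1.57, 1.47 and 1.30. Of 17 feedback genes of the ERK pathway, which carries signals from growth factor receptors, 10 were higher and 0 lower, with a median of 0.82. Phlda1 differed by 2.46 ± 0.17, and the receptor signalling inhibitors Spry4 and Spry1 by 1.94 and 1.86. The transcription factor Etv4 rose by 1.27. Among 28 other receptor tyrosine kinases, 6 were higher and 12 lower, while 33.6% of all genes were called. The collagen receptor Ddr2 (1.88) and the neuregulin receptor Erbb3 (1.79) led the rises. The ephrin receptors Epha7 (-3.06), Epha4 (-2.23) and Epha5 (-2.23) led the falls, and Epha7 read 6.56, 5.40, 6.39 and 6.45 against 9.24 to 9.27 in the controls.

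Myc, the transcription factor that drives growth and biosynthesis, was far higher: it read 10.25, 10.58, 10.46 and 10.75 in the tumours and 6.51, 7.98, 6.79 and 6.81 in the controls (3.48 ± 0.25). Of the 10 measured genes of its network, the only other called gene was Mxd4 (0.39), whose call was lost with housekeeping centring and without control replicate 2, 3 or 4 or tumour replicate 1 or 4. Families of the biosynthetic machinery, chosen after the values were seen, differed in how many members were higher. Of 60 ribosomal protein genes, 46 were called higher and 0 lower, with a median of 0.58. Of 20 nucleoporin genes 18 were higher, and of 27 RNA polymerase subunit genes 16 were higher, with 0 lower in both. Among small nucleolar RNAs, which guide the modification of ribosomal RNA, 18 of 31 C/D genes and 15 of 20 H/ACA genes were higher. With housekeeping centring the counts were 37, 15, 11, 17 and 14, with 1 polymerase gene and 1 C/D gene lower. The ribosomal protein gene Rplp0 (1.86) is itself on the housekeeping list. Of 49 translation initiation genes 20 were higher and 3 lower. Of 77 genes of the mitochondrial ribosome 11 were higher and 2 lower (16.9% called, against 33.6% of all genes). For contrast, 35 of 1015 olfactory receptor genes (3.45%) were called in either direction, 6 higher and 29 lower.

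Notch pathway genes split, and a list of Notch target genes did not move as a group. Of 27 measured receptors, ligands and modifiers, 8 were called higher and 6 lower, with a median of 0.07, while 33.6% of all genes were called. With housekeeping centring 5 were higher, and without tumour replicate 1 the number lower was 3. The ligand Jag1 read 7.02, 6.80, 6.97 and 7.08 against 5.57, 5.47, 5.50 and 5.48 (1.46 ± 0.17). The receptor Notch1 read 7.40, 7.58, 7.46 and 7.41 against 6.06, 6.58, 6.20 and 6.18 (1.20 ± 0.15). The coactivator Maml2 rose by 1.42 and the receptor-cleaving protease Adam17 by 1.34. In these genes the groups did not overlap.

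Of 14 measured Notch target genes, 4 were called higher and 2 lower, or 4 lower with array weights, while 33.6% of all genes were called. The promoter of Hes5, the target most closely tied to Notch in neural stem cells, is shown for its RBPJ element (letters TGGGAA, in capitals, either strand), over the 120 bases before its start at chr4:154960803-154960922, plus strand.
Hes5: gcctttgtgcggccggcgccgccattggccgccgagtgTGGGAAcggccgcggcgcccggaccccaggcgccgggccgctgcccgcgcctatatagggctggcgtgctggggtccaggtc
The window holds 1 match, and in the 250 bases before the start 3 of 7 Notch target promoters and 21.5% of all promoters held the element, which is a description of the letters. Hes5 read 6.61, 6.72, 6.65 and 6.72 in the tumours and 7.19, 7.20, 7.23 and 6.96 in the controls (-0.47 ± 0.12, adjusted p = 0.00576). Hey1, a related repressor, read 7.35, 7.59, 7.55 and 7.53 against 8.13, 8.40, 8.15 and 8.25 (-0.73 ± 0.12, adjusted p = 8.32e-05). Both were lower on every tumour array. Hey2, the close relative of Hey1, was higher, at 6.57, 6.92, 6.47 and 7.80 against 5.28, 5.93, 5.57 and 5.66 (1.33 ± 0.34). The other 3 that rose were Fabp7, a fatty acid carrier of radial glia (2.16), and Myc and Ccnd1, which have many other regulators. Hes1 (0.16, adjusted p = 0.568), Nrarp (-0.13), Heyl (-0.16), Hes6 (0.40), Sox9 (0.15), Notch3 (0.07), Dtx4 (-0.25) and Dtx1 (-0.28, adjusted p = 0.0658) were not called.

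Markers of undifferentiated glia were mixed. Of 20 neural stem and radial glia genes, 6 were called higher and 4 lower, while 15.7% and 17.9% of all genes were. The count lower was 7 when only the 2 groups compared entered the fit. Nes, the intermediate filament nestin, rose by 2.23 and Vim by 1.89. The matrix protein Tnc rose by 2.66, with tumour arrays at 8.67, 8.91, 9.24 and 6.94. Of 15 proneural and Id factors, 2 were higher and 4 lower, while 33.6% of all genes were called. The E protein Tcf12 rose by 1.58, Neurod6, a factor of cortical excitatory neurons, fell by 3.76 and Id4 fell by 1.38.

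Genes of a neuron list fell throughout. All 31 measured were called lower, against 17.9% of all genes, with a median of -2.63. In all 31 the tumour and control arrays did not overlap, against 34.5% of all genes. Some neuronal genes outside the list were not called, among them Gng3 (-0.44) and Syt4 (-0.66). Calb1, a calcium buffer of several neuron types, read 5.46, 4.55, 6.09 and 5.52 in the tumours and 9.55, 9.54, 9.47 and 9.53 in the controls (-4.12 ± 0.41). Camk2a, the calmodulin kinase of excitatory synapses, read 7.08, 6.96, 8.0 and 7.52 against 11.26, 11.02, 11.42 and 10.97 (-3.78 ± 0.47). Stmn2, a regulator of axonal microtubules, read 7.86, 6.96, 9.60 and 7.01 against 11.16, 11.29, 11.85 and 11.78 (-3.66 ± 0.54). Tumour replicate 3 was the highest of the tumour arrays in all 3 genes and had the highest mean of the whole list among them. The surface protein Thy1 fell by 3.57 and the interneuron peptide Sst by 3.39. Other genes among the 15 largest falls were the plasticity factor Nrn1 (-3.86), the kinase anchor Sphkap (-3.84), the receptor Epha6 (-3.79), the tubulin Tuba4a (-3.72), the secreted synaptic protein Lgi1 (-3.64), the cadherin Cdh12 (-3.64) and the membrane protein Mal2 (-3.57).

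Synaptic machinery fell on the side of release and on that of reception. Of 28 genes of synaptic vesicles and release, 25 were called lower and 0 higher (median -2.06). The vesicle protein Sv2b fell by 3.60, the glutamate transporters of vesicles Slc17a7 and Slc17a6 by 3.37 and 3.35, the calcium sensor Syt1 by 3.26 and the release clamp Cplx1 by 2.92. Of 12 GABA receptor subunits 8 were lower and 0 higher (median -2.18), led by Gabra4, which read 6.19, 5.83, 6.92 and 6.58 against 9.54, 10.31, 9.64 and 9.55 (-3.38 ± 0.33). Of 20 glutamate receptor genes, 11 were lower and 1 higher, with a smaller median of -0.65. The 8 not called include Gria2, Gria3, Gria4 and Grm5. Grin2b, an NMDA receptor subunit, read 5.80, 5.78, 6.85 and 5.91 against 9.47, 9.51, 9.79 and 9.43 (-3.47 ± 0.38), and Grin2a (-3.48) and the AMPA receptor gene Gria1 (-3.30) followed. The gene that rose was the kainate receptor Grik3 (1.16), named after its value was seen. Of 34 voltage-gated channel genes 30 were lower and 0 higher (median -1.66). The calcium channel subunit Cacng3 (-3.81) and the potassium channel Kcnh7 (-3.55) led.

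**Figure D3:**
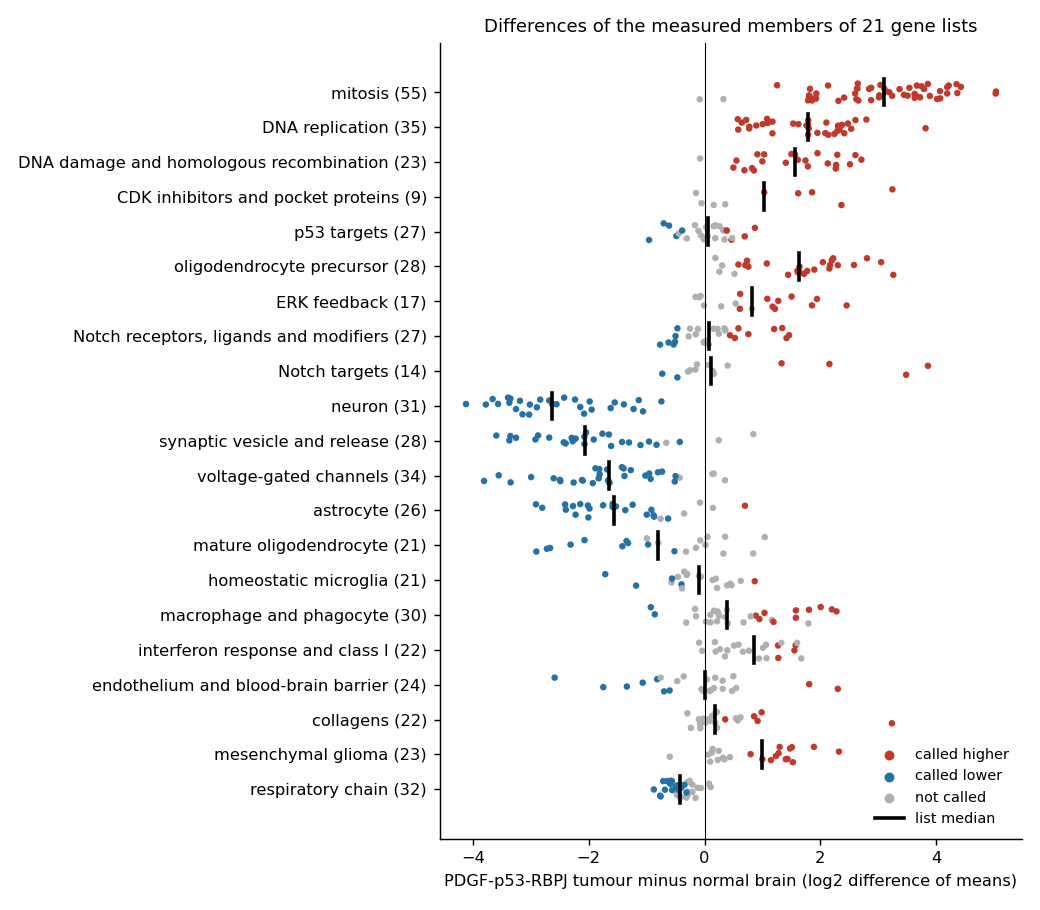
Difference of means (PDGF-p53-RBPJ tumour minus normal brain, log2) of each measured member of 21 gene lists, with the number measured in brackets, a black bar at the list median, red for genes called higher, blue for called lower and grey for not called. The mitosis list has its median at 3.11 and the neuron list at -2.63, while p53 targets (0.06) and Notch receptors, ligands and modifiers (0.07) are centred near 0.

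Regional neuron genes varied among the control arrays. For 8 genes of striatal projection neurons the list mean was 8.59, 8.96, 7.11 and 7.67 on the control arrays and 6.80 to 7.07 on the tumour arrays. Of these genes 6 were called lower, among them Ppp1r1b, the dopamine signalling protein DARPP-32 (-1.67), and Foxp1 (-1.55). The mean of 16 cerebellar, midbrain and hindbrain genes was 6.58 on control replicate 4 and 5.57 to 5.70 on the other control arrays. Of 10 forebrain region factors 6 were lower and 0 higher, led by Neurod6, at 3.50 to 3.92 in the tumours and 7.01 to 7.91 in the controls, and the cortical factor Tbr1 (-2.73). The part that the region of the control pieces has in the neuronal and glial differences was not tested.

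**Figure D4:**
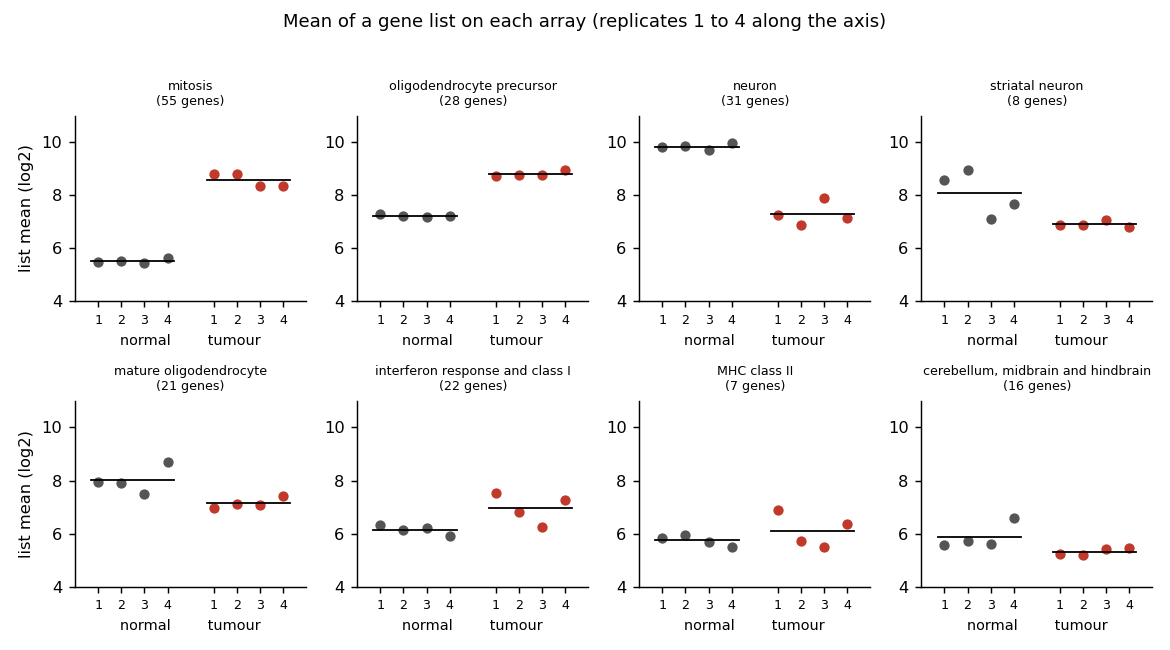
Mean log2 level of 8 gene lists on each array, normal brain in grey and PDGF-p53-RBPJ tumour in red, with a line at the group mean. Mitosis, precursor and neuron lists separate the groups, while the striatal, cerebellar and mature oligodendrocyte lists vary among the control arrays and the interferon and MHC class II lists vary among the tumour arrays.

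Mature glia were lower as well. Of 26 astrocyte genes, 21 were called lower, with a median of -1.56, and the single gene called higher, F3 (0.70), lost its call with housekeeping centring and without control replicate 3 or 4 or tumour replicate 1, 3 or 4. Gjb6, the gap junction protein connexin 30, read 5.03, 4.75, 5.42 and 5.44 against 8.23, 7.84, 7.78 and 8.0 (-2.80 ± 0.27). The zinc transporter Slc39a12 fell by 2.91, the bicarbonate transporter Slc4a4 by 2.41, the connexin Gja1 by 2.40 and Slc1a2, the main glutamate transporter, by 2.27. Gfap, the filament of reactive astrocytes, differed by -0.76 (adjusted p = 0.115) and was not called, and was chosen after its value was seen. Etnppl, an enzyme enriched in astrocytes, was among the 15 largest falls (-3.60).

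Genes of mature oligodendrocytes fell in part while those of their precursors rose. Of 21 measured genes, 10 were lower and 0 higher, with a median of -0.80. Mobp, a myelin protein, read 8.18, 8.54, 8.54 and 8.69 against 11.03, 11.31, 10.32 and 11.95 (-2.67 ± 0.56). Ermn, a cytoskeletal protein of myelin sheaths, fell by 2.90, the aspartoacylase Aspa by 2.72, Mal by 2.31 and the myelin glycoprotein Mog by 2.07. Control replicate 4 had the highest list mean (8.71, against 7.49 to 7.93 on the other control arrays), and without it 2 genes were called higher. Enpp6, which marks newly forming oligodendrocytes, differed by 0.84 (adjusted p = 0.075) and was called without control replicate 4. Of 12 choroid plexus and ependyma genes 6 were lower, or 2 when dim genes were left out. The transthyretin gene Ttr, the leading transcript of the choroid plexus, read 9.91, 13.14, 9.18 and 13.26 on the control arrays and 6.41, 6.51, 7.79 and 8.77 on the tumour arrays (-4.00 ± 0.97).

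Immune lists differed among themselves, and some varied between tumours. Of 21 genes of resting microglia, 1 was called higher and 4 lower, while 33.6% of all genes were called. The count higher was 2 without tumour replicate 1 and 5 when only the groups compared entered the fit. The 16 genes not called include P2ry12, Tmem119, Cx3cr1 and Csf1r. The phagocytic receptor Mertk fell by 1.71 and the lectin Siglech by 1.18, whereas the microglial factor Sall1 was higher by 0.87. Sall1 is also expressed in neural progenitors. Of 30 macrophage and phagocyte genes, 10 were higher and 2 lower, with a median of 0.39, while 33.6% of all genes were called. The glycoprotein Gpnmb read 7.97, 8.35, 8.64 and 8.53 against 6.14, 6.18, 5.79 and 6.25 (2.28 ± 0.50). The monocyte chemokine Ccl2 read 8.17, 7.52, 8.06 and 8.93 against 5.64, 5.93, 6.29 and 6.02 (2.20 ± 0.27), and the groups of both genes were apart. Lyz2, which encodes lysozyme, rose by 1.80 and the scavenger receptor Msr1 by 2.01. The complement genes C4b and C3ar1 rose by 1.66 and 1.03, the 2 called among 12, where 15.7% of all genes were called higher. Of 14 lymphocyte genes limma called 0, and 1 had an unadjusted p under 0.05, as had 41.0% of all genes.

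Of 22 interferon-response and class I genes 4 were called higher, a share near that of all genes (15.7%), with a median of 0.85. Their spread among the tumours was wide. The list mean was 7.53, 6.82, 6.24 and 7.26 on the tumour arrays and 5.91 to 6.32 on the control arrays, so that tumour replicate 3 lay within the control range. Ifit2, an antiviral effector, read 9.01, 8.79, 8.56 and 8.50 against 7.54, 7.62, 7.50 and 7.12 (1.27 ± 0.25), and the GTPase Mx2 rose by 1.55. The other 2 called genes, Usp18 (1.58, adjusted p = 0.0418) and Rsad2 (1.27, adjusted p = 0.0284), lost their calls without tumour replicate 1 or 2 and without control replicate 3 or 4, and the count was 2 without any of these arrays. It was 10 when only the groups compared entered the fit, and 7 without p53-RBPJ replicate 2. The mean of 7 MHC class II genes followed the same order, at 6.89, 5.70, 5.51 and 6.35 in the tumours and 5.49 to 5.95 in the controls. By limma 0 of the 7 were called, and 1 had an unadjusted p under 0.05.

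Of 24 endothelial and blood-brain barrier genes, 7 were lower and 2 higher, a share near that of all genes called (33.6%), and the median was 0.01. Slco1a4, an organic anion transporter of brain capillaries, read 4.81, 5.47, 5.60 and 5.60 against 8.26, 7.90, 8.0 and 7.67 (-2.59 ± 0.31). Its relative Slco1c1, a carrier of thyroid hormone, fell by 1.75 and the efflux pump Abcb1a by 1.34. Angpt2, the angiopoietin of sprouting vessels, rose by 2.30 ± 0.40, from 5.34 to 6.58 up to 7.33 to 8.49. Esm1, the other gene called higher (1.81), lost its call without any of control replicates 1, 3 and 4 or tumour replicates 1, 2 and 3, and the count called higher was 4 without tumour replicate 4. Of 20 mural and fibroblast genes 4 were higher and 2 lower, also near the share of all genes. Pdgfra and Cspg4 are among the 4 and belong to the precursor list too, and the count was 2 without control replicate 1, 2 or 3 or tumour replicate 3. The mural genes Rgs5 (-1.42) and Vtn (-1.06) were the 2 lower. Vtn lost its call without control replicate 1, 3 or 4 or tumour replicate 1, 2 or 3.

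Transcripts of extracellular matrix genes differed in both directions. Of 32 matrix proteoglycan and adhesion genes, 17 were higher and 6 lower. The laminin chain Lama4 rose by 2.71 and the tetraspanin Cd9 by 2.0, while the link protein Hapln1, a part of the nets around neurons, fell by 2.13. Of 22 collagen genes 5 were higher, against 15.7% of all genes, and 0 lower. The count higher was 3 without tumour replicate 2. Col11a1, a fibrillar collagen, stood apart from the rest of the family at 9.63, 9.74, 9.60 and 9.61 against 6.34, 6.64, 6.35 and 6.31 (3.24 ± 0.25), and the next, Col18a1, differed by 0.99. Of 23 genes of the mesenchymal glioma type 13 were higher and 0 lower, with a median of 1.0. The galectin Lgals1 read 11.48, 12.01, 11.52 and 10.63 against 8.99, 8.96, 9.12 and 9.28 (2.32 ± 0.24). The annexin partner S100a10 rose by 1.53, the matrix protein Tgfbi by 1.51 and the protease inhibitor Timp1 by 1.48. Prrx1, a homeobox factor of mesenchyme and neural progenitors, read 10.19, 9.26, 9.77 and 9.78 against 6.39, 6.22, 6.22 and 6.46 (3.43 ± 0.34), and Zeb1 rose by 1.12.

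Respiratory chain genes were lower, and a joint list of hypoxia and glycolysis genes was mixed. Of 32 respiratory chain genes 18 were lower and 0 higher, with a median of -0.42. Cox4i1, a subunit of cytochrome oxidase, read 11.24, 11.26, 11.19 and 10.87 against 11.71, 12.05, 12.19 and 12.11 (-0.87 ± 0.15). Of 23 hypoxia and glycolysis genes, 5 were higher and 8 lower, while 33.6% of all genes were called. Among the glycolytic enzymes, Hk2 was called higher and Aldoa, Aldoc, Pfkm, Pfkp and Pkm were called lower. Hk1, Ldha, Pfkl and Pgk1 were not called. The hypoxia-induced peptide Adm rose by 1.84 and the collagen hydroxylase P4ha1 by 1.10. The glycolytic enzymes Aldoc, Pfkm and Aldoa fell by 2.01, 1.42 and 1.11. The count higher was 3 without tumour replicate 1, tumour replicate 2 or control replicate 3. Of 18 cholesterol synthesis genes 4 were lower, against 17.9% of all genes, and 0 higher. The count lower was 2 without tumour replicate 4, control replicate 2 or control replicate 4. Of 18 immediate early genes 4 were higher and 6 lower, or 3 lower without tumour replicate 1, while 33.6% of all genes were called. Egr2 rose by 1.90 and Arc, a gene of active synapses, had a difference of -1.28 that lost its call without control replicate 4 or tumour replicate 1, and both overlapped between the groups. Of 26 Wnt pathway genes 6 were higher and 3 lower, or 6 lower with housekeeping centring, a share near the 33.6% of all genes called. Of 11 Hedgehog pathway genes 3 were lower, against 17.9% of all genes, led by Gli3 (-1.27). The count was 1 without control replicate 3 or tumour replicate 1 or 3.

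Probe sets for microRNA genes read the precursor or its host transcript, not the mature RNA. Of 296 such genes 9 were called higher and 31 lower (13.5% called, against 33.6% of all genes), with a median of -0.09. The mature sequences of the called genes discussed here are given as RNA from RefSeq (GRCm38.p6), with the seed, bases 2 to 8, in capitals. The first 3 come from genes called higher and the other 3 from genes called lower.
miR-18a-5p: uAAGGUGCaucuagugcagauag
miR-19a-3p: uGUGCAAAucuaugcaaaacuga
miR-25-3p: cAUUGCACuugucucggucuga
miR-128-3p: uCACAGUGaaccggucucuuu
miR-138-5p: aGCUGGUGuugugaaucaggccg
miR-107-3p: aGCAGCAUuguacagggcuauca
No seed is shared among these 6. Mir18 and Mir19a belong to the Mir17 cluster, a target of Myc that is cut from a single transcript. Mir18 read 6.99, 6.53, 7.04 and 7.95 against 4.44, 5.13, 4.84 and 4.97 (2.28 ± 0.52), Mir19a differed by 1.24 and the host transcript Mir17hg by 1.25. The other probe sets of the cluster were not called, with Mir17 at 0.41, Mir20a at 0.11 and Mir19b-1 at 0.08. Mir25 was higher by 0.76. Mir128-1 and Mir128-2 encode the same mature miR-128-3p, a neuronal microRNA. Mir128-1 read 7.40, 7.34, 7.86 and 7.79 against 9.97, 9.59, 9.59 and 9.10 (-1.96, adjusted p = 0.00023), and Mir128-2 fell by 0.49. Mir138-2 fell by 0.95 and Mir107 by 1.18. Mir138-1, which encodes the same miR-138-5p as Mir138-2, was also called lower (-0.56). These genes were chosen after their values were seen.

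The role of RBPJ within the virus model was addressed by setting these tumours against the PDGF-p53 tumours in the same fit. By limma 4 of 19936 genes (0.0201%) were called, 3 higher (0.015%) and 1 lower (0.00502%), and 0 genes of any list. At an unadjusted p under 0.05 stood 5.18% of all genes, 11 of 55 mitosis genes (11 higher in the PDGF-p53-RBPJ tumours), 1 of 28 precursor genes (lower), 2 of 14 Notch targets (2 lower) and 0 of 27 Notch receptors, ligands and modifiers. Clic5, a chloride channel-like protein of the membrane skeleton, read 6.66, 7.26, 6.87 and 6.52 in the PDGF-p53-RBPJ tumours and 8.25, 9.27, 9.24 and 8.86 in the PDGF-p53 tumours (-2.07 ± 0.20, adjusted p = 0.000145). It was 5.79 to 5.96 in normal brain, below both. The heat shock gene Hspa1l differed by 1.01 (adjusted p = 0.0305), at 6.29 to 6.71 against 5.13 to 5.59, with normal brain at 6.36 to 6.83. The small nucleolar RNAs Snora73b (1.36, adjusted p = 0.00305) and Snora33 (1.01, adjusted p = 0.0309) were the other 2, named after their values were seen. Hspa1l and Snora33 lost their calls with housekeeping centring, the replicate block and the removal of any tumour array, where the total was 2. It was also 2 without PDGF-p53 replicate 2, control replicate 2 or p53-RBPJ replicate 3, and 7 without PDGF-p53 replicate 4. The Notch targets Hes5 and Hey1 differed by -0.30 (adjusted p = 0.888) and -0.07 (adjusted p = 0.985). An adjusted p that misses the threshold does not show that the tumour types are alike.

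Against the p53-RBPJ tumours, which lack the virus and its PDGF-B, 651 genes were called (3.27%), 524 higher in the PDGF-p53-RBPJ tumours (2.63%) and 127 lower (0.637%). The sexes differ between these groups, since all 4 p53-RBPJ arrays had the female pattern and 1 of 4 PDGF-p53-RBPJ arrays did, and 61 genes were called with a sex term. The count was 238, 313 and 176 without tumour replicates 1, 2 and 3, and 362 and 396 without p53-RBPJ replicates 3 and 4. Pstpip2, an actin-binding adaptor, read 9.58, 9.26, 9.31 and 8.14 against 4.96, 6.31, 5.55 and 7.33 in the p53-RBPJ tumours (3.04 ± 0.43). Itga8, an integrin chain, read 9.13, 8.72, 9.42 and 7.74 against 6.30, 6.28, 5.53 and 5.34 (2.89 ± 0.43). In both the groups were apart, and the calls held with the sex term. Kit, a receptor tyrosine kinase of the PDGF receptor family, was lower by 2.40, at 7.56 to 8.11 against 8.27 to 11.1, and was not called with the sex term (adjusted p = 0.0692).

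**Figure D5:**
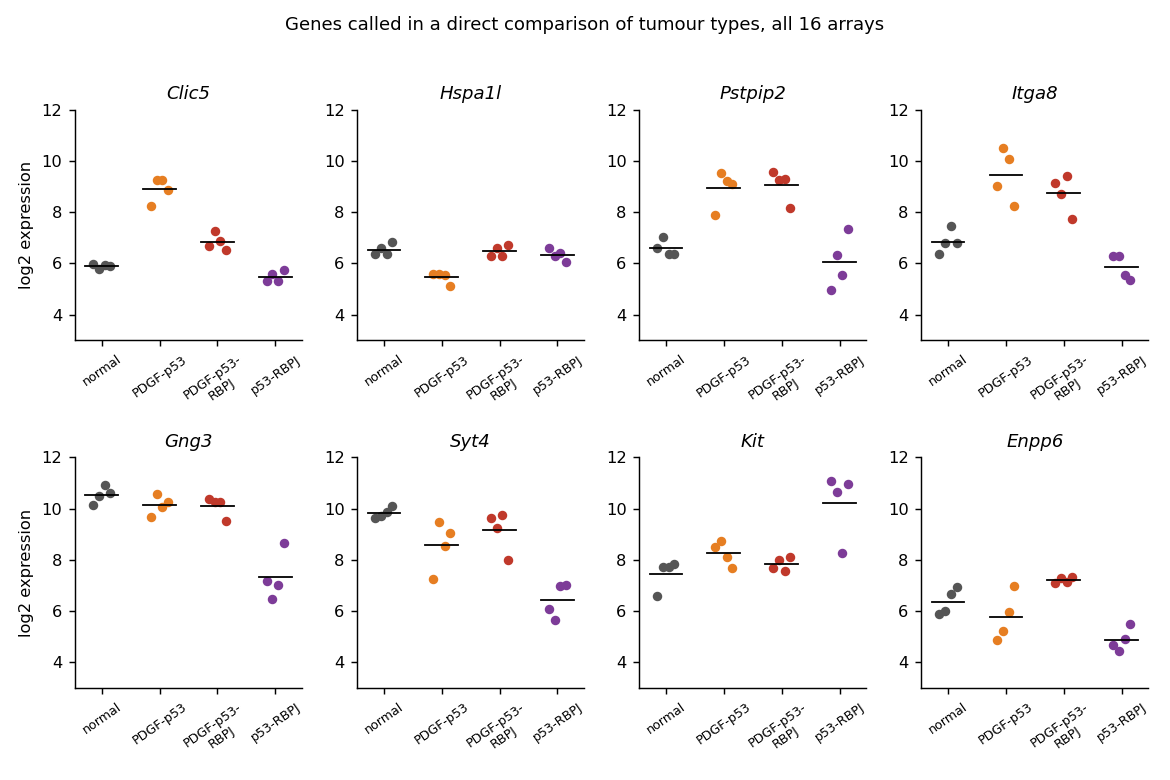
Log2 level of 8 genes called in a direct comparison of tumour types, on all 16 arrays, with 4 points and a line at the mean for normal brain and each of the 3 tumour groups. Clic5 and Hspa1l were called between the tumours that share the virus, and the other 6 genes between PDGF-p53-RBPJ and p53-RBPJ tumours.

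Among other genes higher than in the p53-RBPJ tumours, the G-protein subunit Gng3 differed by 2.76, the vesicle protein Syt4 by 2.73, the carbonic anhydrase-related protein Car10 by 2.62, and Enpp6 by 2.33, with Enpp6 at 7.11 to 7.32 against 4.46 to 5.51. The matrix protease Mmp10 differed by 2.57 and the epithelial protein Scel by 2.58. Against normal brain the same tumours had Mmp10 higher by 3.13 and Car10 lower by 2.28. The GABA receptor subunit Gabrg3 (2.49, adjusted p = 0.0483) ranged from 5.90 to 9.19 among the tumours and lost its call without any of tumour replicates 1 to 3, any control array, any p53-RBPJ array or PDGF-p53 replicate 4. Ccnd2 differed by 2.06, Ccnd1 by 1.04, Phlda1 by 1.20 and Spry4 by 1.30. With the sex term Syt4 (adjusted p = 0.0555 by limma), Car10 (0.0769), Scel (0.0555), Ccnd1 (0.0555), Spry4 (0.123) and Gabrg3 (0.313) were not called. By list, 7 of 34 voltage-gated channel genes, 5 of 18 cholesterol synthesis genes and 3 of 17 ERK feedback genes were higher and 0 of each lower. Of all genes 2.63% were called higher. Other lists had similar counts, among them 5 of 32 matrix, 4 of 23 mesenchymal glioma, 4 of 31 neuron, 4 of 26 astrocyte and 4 of 28 vesicle genes. In these 5 lists only Vcan, a matrix gene, was lower. Of 28 precursor genes 5 were higher and 2, Vcan and Rlbp1, lower. With the sex term the channel and cholesterol lists had 0 called genes, the ERK feedback list 1 higher, and the precursor list 0 higher and 1 lower. The neuron list then had 2 higher, the astrocyte and vesicle lists 1 higher each, and the matrix and mesenchymal glioma lists 0. In the mitosis, DNA replication, interferon and MHC class II lists limma called 0 genes, against 3.27% of all genes. At an unadjusted p under 0.05 stood 6, 3, 2 and 0 of their members, against 16.5% of all genes.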

How the data were processed

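Total RNA of 16 samples, 4 in each of 4 groups, was read on whole-transcript mouse arrays. The deposited values are log2 expression levels per probe set that the authors obtained with RMA in oligo, per the submitters' processing notes, with versions not given in the sources used here. RMA had already corrected background, normalised between arrays and summarised probes, so a level is relative to the other arrays and the number of arrays limits precision. Of 35556 probe sets, 21789 name a single gene symbol in the platform annotation, 21768 of these matched RefSeq, and the probe set with the highest mean stood for each of 19936 genes. Of 1087 list members written, 1009 were measured.

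All groups were fitted together in limma 3.58.1 (R 4.3.3) with lmFit and eBayes, which left 12 residual degrees of freedom, and p-values were adjusted by Benjamini-Hochberg over all genes. Errors after ± are standard errors of a difference. A gene was called at an adjusted p under 0.05. Single genes altered by design were also given an exact two-sided permutation test (Python 3.11.15, scipy 1.17.1). The fit was tested on simulated data. The genes named are the 15 largest rises and 15 largest falls with groups apart, up to 5 called genes of each list by size, up to 10 of each comparison between tumours, and all engineered, PDGF and Notch target genes. Other genes named (such as Cdk1, Ccnb2, Gfap, Grik3, Rlbp1, the uncalled list members, small RNAs and gene families) were chosen after their values were seen. The groups and lists were chosen with earlier results of these data known. The alternatives were each array left out, only the groups compared, the replicate number as a block, the mean of probe sets, no dim genes, housekeeping centring, trend and robust moderation, array weights and a sex term. Same-numbered tumour and control arrays did not deviate together (correlations 0.07, 0.08, -0.10 and -0.05), and the numbers were not used as pairs.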

Additional observations from a re-analysis of the deposited data

Results flagged for a closer look

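Some arrays stood apart from the other 3 of their group by Dixon's test, which flags about 1 in 20 groups by chance. Among the tumour arrays, replicate 4 stood apart in Aldoa (10.5), Angpt2 (7.33), Gng3 (9.51), Mir107 (5.67), Vim (11.3) and Vtn (8.47), and in the mean of the oligodendrocyte precursor list (8.95, the highest). Tumour replicate 1 stood apart in Brip1 (7.49), Slco1a4 (4.81) and the mean of the forebrain region factors (5.71, the lowest), replicate 2 in Epha7 (5.40), and replicate 3 in Etv4 (6.56) and Grin2b (6.85). Among the control arrays, replicate 4 stood apart in Aspa (8.95), Hes5 (6.96), Kif11 (5.46) and Top2a (5.94), and in the list means of cerebellum, midbrain and hindbrain (6.58) and of neutrophils (5.20). Control replicate 1 stood apart in Kit (6.58), replicate 2 in Ccnd1 (7.41), Col11a1 (6.64), Gabra4 (10.3) and Timp1 (6.93), and replicate 3 in Hmga2 (7.16), Slc4a4 (10.2) and Zeb1 (9.26).

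Genes of the report that also differed between tumour types, by limma in the same fit, came up for a closer look because their distance from normal brain depends on the tumour type. Clic5 was -2.07 against PDGF-p53 tumours and 1.35 against p53-RBPJ tumours. Hspa1l (1.01), Snora33 (1.01) and Snora73b (1.36) were higher than in PDGF-p53 tumours. Relative to p53-RBPJ tumours, the PDGF-p53-RBPJ tumours had higher Pstpip2 (3.04), Itga8 (2.89), Gng3 (2.76), Syt4 (2.73), Car10 (2.62), Scel (2.58), Mmp10 (2.57), Gabrg3 (2.49), Enpp6 (2.33) and Ccnd2 (2.06). Smaller differences were seen in Hmga2 (1.61), Col11a1 (1.35), Timp1 (1.30), Spry4 (1.30), Phlda1 (1.20), Zeb1 (1.18), Ccnd1 (1.04), Lama4 (0.82), Cd9 (0.81) and Pdgfrb (0.79). Kit (-2.40), Rlbp1 (-1.80) and Vcan (-0.83) were lower. Of these, Hmga2, Timp1, Vcan, Lama4, Cd9 and Pdgfrb lost their calls without tumour replicate 3 and with the sex term. Syt4, Car10, Scel, Gabrg3, Col11a1, Spry4, Zeb1, Ccnd1 and Kit also lost theirs with the sex term.

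Probe sets outside the gene comparison also separated tumour from normal brain. Of 1621 probe sets that name several symbols, 328 were called higher and 177 lower (31.2% in all). Of 12146 probe sets without a name in the annotation used here, 916 were called higher and 786 lower.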

How the results depend on the processing

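The counts of genes called against normal brain stayed within 1.5 times their value in every alternative run. Leaving out single arrays gave 5851 to 6758 genes called, 2669 to 3171 higher, 3029 to 3587 lower and 2183 to 2315 at least 2-fold. With the replicate block 6641 genes were called, and 2 of 4 tumour arrays correlated best with the control array of their own number, so the block is no evidence of pairing. Against the PDGF-p53 tumours the count of 4 became 2 with housekeeping centring, 2 with the replicate block and 2 to 7 when an array was left out. Against the p53-RBPJ tumours the count of 651 became 1198 with array weights, 395 with only the groups compared, 61 with the sex term and 176 to 806 when an array was left out. For 236 results of single genes, 5461 of 5647 values under the 24 settings kept direction and side of the threshold, 167 lost a call, 19 gained one and 0 changed direction, and 205 results kept their call throughout. The cause of these shifts was not tested. Genes near background have compressed differences on these arrays. The control pieces differ in regional genes, the region is not given, and its part in the differences was not tested.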
